A study of Mus musculus with 18 samples.

Results

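The cytotoxic granule and death ligand genes examined here were Prf1, Gzma, Gzmb, Gzmm, Nkg7, Ctsw, Fasl, Serpinb9, Serpinb6b and Srgn. They were chosen by name, and every probe set whose platform annotation gives only that gene symbol was taken from the 3 arrays of the Affymetrix Murine Genome U74 version 2 set, called U74A, U74B and U74C. This gave 15 probe sets of the 36701 that are not controls, and 10 genes of the 12193 with a tested probe set. Of the 15 probe sets, 14 reached a signal of 60 on at least 2 of the 6 samples of their array type and were tested. The remaining one, a second probe set of Gzma on U74C, is given by its values.

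Cytotoxic lymphocytes kill by releasing granules onto a target cell. Perforin opens the target's membrane to granzymes, serine proteases that start cell death inside it, while serglycin is the proteoglycan that packs these cargo proteins in the granule. Fas ligand kills by a separate route, through the death receptor Fas on the target, and intracellular serpins of the B clade protect the killer cell from its own proteases. These genes are best known from natural killer (NK) cells and cytotoxic T cells.

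The populations were IKDC, the label's short form of interferon-producing killer dendritic cells, PDC, which are plasmacytoid cells known for type I interferon release, and cDC, the conventional type known for presenting antigen to T cells. All came from mouse spleen, and cDC were the submitters' control. There were 2 samples of each population, prepared separately, and each of the 6 samples was hybridised to all 3 array types, giving 18 arrays. Strain, age, any treatment, the sorting gates and the number of animals are not given in the sources used here, so the p-values measure only the spread between these samples, part of which may be technical.

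The values are signals on a linear scale, which the authors scaled on every array to a target of 150, and with so few arrays the precision is limited. Gapdh control probe sets gave a ratio of 3' over 5' signal between 2.97 and 5.996. On U74A it was 5.996 in PDC replicate 1 and 3.19 in PDC replicate 2. Marker lists were set beside the labels. They were drawn up with earlier results of these data known, so they are no independent check of the labels. All 11 tested plasmacytoid markers were called higher in PDC than in cDC, 10 of 12 tested conventional dendritic cell markers were called lower in IKDC than in cDC, and 9 of 10 tested NK cell markers were called higher in IKDC in both of its comparisons. Of all tested genes, 2.25% were called higher in PDC than in cDC. In IKDC, 3.5% were called higher and 4.07% lower than in cDC, and 2.71% higher than in PDC. The summed NK marker signal was 20420 and 21860 in IKDC, against 9161 and 7750 in PDC and 5208 and 3809 in cDC. The PDC sum came mostly from Tyrobp, the NK marker that was not called. Tyrobp read 2931 and 2953 in IKDC, against 6614 and 5603 in PDC and 3525 and 1867 in cDC. Between PDC and cDC, 1 NK marker was called: Klrd1, higher in PDC, at 778 and 877 against 360 and 362 (adjusted p = 0.028, limma). B cell markers summed to 7654 and 4830 in IKDC, against 7520 and 3056 in PDC and 822 and 634 in cDC, and 1 of 5 (Igha) was called higher in IKDC than in cDC, beside 3.5% of all tested genes. In IKDC and PDC these sums came mostly from Igha, at 5909 and 4205 in IKDC and 6474 and 2614.5 in PDC, against 190 and 227 in cDC. Cd79a, Cd79b, Ms4a1 and Pax5 were not called in any comparison. Erythroid markers summed to 14220 and 16890 in IKDC, against 22380 and 9413 in PDC and 679 and 1686 in cDC. Of 4 tested erythroid markers 3 were called higher in IKDC than in cDC and 1 than in PDC, beside 3.5% and 2.71% of all tested genes. Neutrophil markers summed to 311 and 261 in IKDC, against 771 and 212 in PDC and 795 and 1656 in cDC. Ngp, a neutrophil marker that was not tested and is outside these sums, had its highest value, 955, in cDC replicate 2. Macrophage markers summed to 497 and 528 in IKDC, against 2079 and 2378 in PDC and 5316 and 6328 in cDC. Of 5 neutrophil and 7 macrophage markers tested, 2 and 6 were called lower in IKDC than in cDC, beside 4.07% of all tested genes. The part of these cells in the results below was not tested. In such bulk samples, fewer cells of a type and less RNA per cell cannot be told apart.

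IKDC had the highest signals for most of the killing machinery. Relative to cDC, 7 of the 10 genes were called higher in IKDC and 0 lower, by limma with an adjusted p under 0.05, where 3.5% of all tested genes were called higher and 4.07% lower. Relative to PDC, 8 were called higher and 0 lower, against 2.71% and 3.17% of all tested genes. The median log2 difference of the 10 genes was 2.89 from cDC and 3.05 from PDC, while that of all tested genes was 0.01 in both. These comparisons share the IKDC samples. Between PDC and cDC, 1 gene (Ctsw) was called higher and 1 (Serpinb6b) lower in PDC, against 2.25% and 2.75% of all tested genes, and the median of the 10 genes was -0.01. Differences are on the scale of log2(signal + 16), which understates the change of dim genes. Each is given with its standard error and the limma p adjusted over all 23285 tested probe sets, with n = 2 samples per population.

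**Figure D1:**
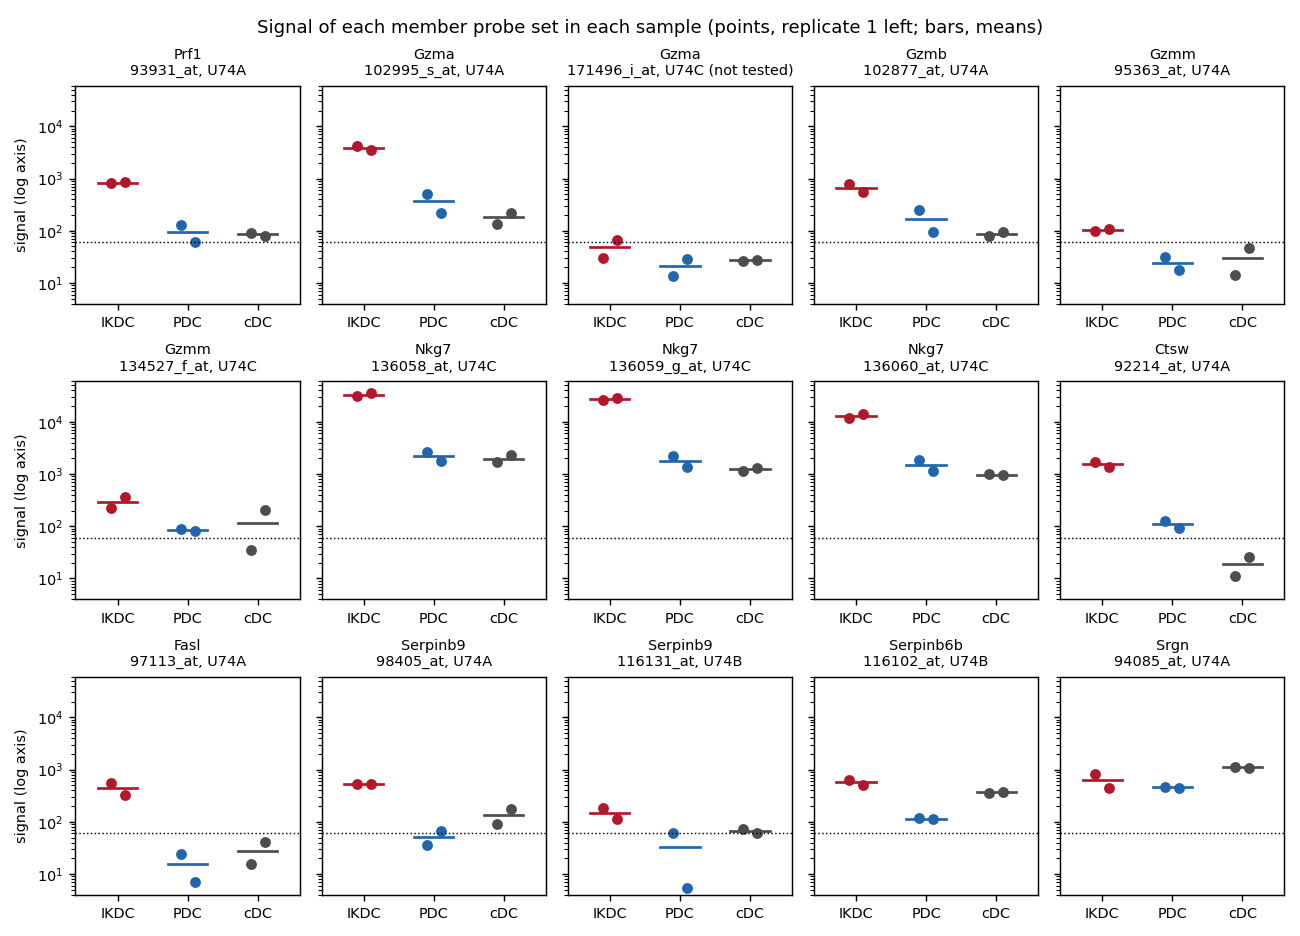
Signal (log axis, arbitrary units scaled to a target of 150) of all 15 probe sets in the 2 IKDC, 2 PDC and 2 cDC samples, with points for samples, bars for means and a dotted line at 60. Both IKDC samples lie above the other 4 for every tested probe set except that of Srgn, and Serpinb6b separates all 3 populations.

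Prf1 encodes perforin, the pore-forming protein of the granule. Its signals were 826 and 852 in IKDC, against 127 and 61.1 in PDC and 90.8 and 80.2 in cDC. The IKDC samples lay close together and far above the other 4, and the PDC samples enclosed the cDC samples. Prf1 was higher in IKDC than in cDC by 3.08 ± 0.34 (adjusted p = 0.000286, limma) and than in PDC by 3.03 ± 0.34 (adjusted p = 0.000333). PDC minus cDC was 0.05 ± 0.34, with a 95% interval of -0.70 to 0.80.

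Of the granzymes, Gzma showed the larger differences. Granzyme A is a protease that cuts after basic residues, and granzyme B cuts after aspartate and can activate caspases. The U74A probe set of Gzma read 4262 and 3590.5 in IKDC, against 511 and 215 in PDC and 135 and 223 in cDC. Gzma was higher in IKDC by 4.37 ± 0.39 than in cDC (adjusted p = 6.77e-05, limma) and by 3.49 ± 0.39 than in PDC (adjusted p = 0.000316). PDC and cDC samples overlapped, and PDC minus cDC was 0.87 ± 0.39 (adjusted p = 0.32). The second Gzma probe set, on U74C, read 29.9 and 67.9 in IKDC, against 13.8 and 29.3 in PDC and 26.7 and 27.9 in cDC, and reached 60 in a single sample.

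Gzmb read 772 and 557 in IKDC, against 247 and 92.7 in PDC and 80.4 and 94.5 in cDC. The IKDC samples were again the highest, and PDC replicate 1 lay between them and the other 3 samples. Gzmb was higher in IKDC than in cDC by 2.70 ± 0.40 (adjusted p = 0.00204, limma). The difference from PDC, 1.99 ± 0.40 (adjusted p = 0.0151), was not called in every setting. It was 1.35 and no longer called without PDC replicate 2 (adjusted p = 0.0606), and it also lost its call without IKDC replicate 1 (0.156) or IKDC replicate 2 (0.0562) and with signals under 60 set to 60 (0.0716).

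Gzmm, granzyme M, is a protease that cuts after methionine and leucine. Its U74C probe set read 229 and 364 in IKDC, against 89.5 and 80.3 in PDC and 35.1 and 201 in cDC. Its U74A probe set read 101 and 107 in IKDC, against 30.8 and 17.3 in PDC and 14.2 and 46.4 in cDC. That probe set was tested only because the IKDC samples reached 60. Both IKDC samples exceeded the other 4 on both probe sets, but neither probe set passed the test. The U74C differences were 1.53 ± 0.67 from cDC (adjusted p = 0.246, limma) and 1.60 ± 0.67 from PDC (adjusted p = 0.298), with 95% intervals of 0.05 to 3.01 and 0.12 to 3.08. The cDC samples differed most from each other on this gene, and without cDC replicate 1 the U74C difference from cDC was 0.49, while without cDC replicate 2 it was 2.58. The suffix of the U74C probe set name (f) marks probes shared within a sequence family, and unspiked bacterial controls reached 149 on that array type, above the PDC signals of this probe set.

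The other 5 granzyme genes on the arrays, Gzmc, Gzmd, Gzmf, Gzmg and Gzmk, had 7 probe sets, and 0 of their 42 values reached 60. Their highest value was 58.7, for Gzmk in IKDC replicate 1. Gzmk lies directly beside Gzma, and Gzmc directly beside Gzmb, in the RefSeq gene order. Gzmc and Gzmf did not exceed 12.8 in any sample. Gzme and Gzmn had no probe set with that single symbol.

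Nkg7, a membrane protein of cytotoxic granules needed for their efficient release, was measured by 3 probe sets on U74C. The brightest read 30720 and 34971 in IKDC, against 2680 and 1813 in PDC and 1672 and 2281 in cDC. The second read 26172 and 29078.5 in IKDC, against 2171 and 1373 in PDC and 1158 and 1336 in cDC. The lowest read 11804 and 14355 in IKDC, against 1826 and 1159 in PDC and 985 and 957 in cDC. All 3 placed the IKDC samples well above the rest. The differences from cDC were 3.72 to 4.45 and those from PDC 3.15 to 3.99, with limma adjusted p between 1.76e-05 and 8.10e-05. PDC and cDC samples overlapped on the brightest probe set and did not overlap on the other 2, where PDC was higher without passing the test (0.47 ± 0.26 and 0.58 ± 0.27, adjusted p = 0.475 and 0.354).

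Ctsw encodes cathepsin W, a cysteine protease found mainly in NK cells and cytotoxic T cells. It read 1677 and 1387 in IKDC, against 128 and 92.9 in PDC and 11.3 and 26.0 in cDC. The populations did not overlap in any pair, in the order IKDC, PDC, cDC. Both cDC values were under 60, so the fold over cDC is a bound. Ctsw was at least 25.4-fold higher in IKDC than in cDC (log2 difference 5.51 ± 0.33, adjusted p = 1.79e-05, limma). It was 3.62 ± 0.33 higher in IKDC than in PDC (adjusted p = 8.45e-05). It was also the gene of the 10 that was called higher in PDC than in cDC, by at least 1.82-fold (log2 difference 1.89 ± 0.33, adjusted p = 0.00814). That call was lost without cDC replicate 1 (adjusted p = 0.0786), with only PDC and cDC in the fit (0.0742), and with signals under 60 set to 60 (0.231).

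Fasl, the death ligand, read 558 and 323 in IKDC, against 24.2 and 7.10 in PDC and 15.4 and 40.2 in cDC. All 4 PDC and cDC values were under 60. Fasl was therefore at least 7.07-fold higher in IKDC than in either. The log2 differences were 3.39 ± 0.47 from cDC (adjusted p = 0.00121, limma) and 3.86 ± 0.47 from PDC (adjusted p = 0.000556). The probe set was tested only because both IKDC samples reached 60. With no limit on signal it was still called (adjusted p = 0.00218 from cDC and 0.000948 from PDC, limma). Without IKDC replicate 1, the brighter sample, the difference from cDC was 3.01 with an adjusted p of 0.0504. The receptor gene Fas had 1 probe set, whose highest value was 19.7.

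The promoters of 4 of these genes, encoding perforin, the granzyme pair A and B and Fas ligand, are printed. All 4 were called higher in IKDC in both comparisons. So were Nkg7, Ctsw and Serpinb9, which are not printed. Each window runs from 250 bases before to 50 bases after a RefSeq transcript start (GRCm38.p6), 5' to 3' in the gene's direction, in lower case, with motif matches on either strand in capitals.
Prf1 promoter window, chr10:61297586-61297885, plus strand: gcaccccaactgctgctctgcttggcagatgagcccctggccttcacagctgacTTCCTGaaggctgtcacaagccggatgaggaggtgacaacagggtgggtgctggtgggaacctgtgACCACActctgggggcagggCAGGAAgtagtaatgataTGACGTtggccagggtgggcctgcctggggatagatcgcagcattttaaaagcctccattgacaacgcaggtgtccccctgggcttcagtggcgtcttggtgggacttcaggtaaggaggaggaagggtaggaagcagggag
Gzma promoter window, chr13:113100932-113101231, minus strand: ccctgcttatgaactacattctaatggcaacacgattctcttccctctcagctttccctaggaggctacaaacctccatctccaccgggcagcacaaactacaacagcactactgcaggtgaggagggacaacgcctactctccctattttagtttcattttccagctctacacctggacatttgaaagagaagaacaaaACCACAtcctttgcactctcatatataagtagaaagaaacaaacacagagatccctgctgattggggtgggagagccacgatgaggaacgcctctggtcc
Gzmb promoter window, chr14:56262285-56262584, minus strand: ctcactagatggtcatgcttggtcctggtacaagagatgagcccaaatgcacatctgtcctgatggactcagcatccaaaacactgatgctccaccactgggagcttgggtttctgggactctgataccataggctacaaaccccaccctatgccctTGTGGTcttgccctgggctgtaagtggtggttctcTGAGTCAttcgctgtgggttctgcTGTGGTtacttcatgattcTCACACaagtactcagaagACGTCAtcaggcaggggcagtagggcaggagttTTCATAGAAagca
Fasl promoter window, chr1:161788446-161788745, minus strand: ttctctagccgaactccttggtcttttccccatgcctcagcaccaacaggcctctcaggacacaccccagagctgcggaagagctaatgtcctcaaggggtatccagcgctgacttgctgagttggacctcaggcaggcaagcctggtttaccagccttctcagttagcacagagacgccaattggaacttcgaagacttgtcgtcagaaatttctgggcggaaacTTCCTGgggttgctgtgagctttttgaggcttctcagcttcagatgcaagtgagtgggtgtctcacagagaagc
The letters searched were TCACAC (T-box core), ACCACA (Runx core), TGACGT (cyclic AMP response element core), TTCNNNGAA (interferon gamma activated site), TGANTCA (AP-1 site) and CAGGAA (an ETS core), and no matches overlapped in these 4 windows. In Prf1 the capitals mark a Runx core 130 bases, a cyclic AMP response core 92 bases and ETS cores 196 and 110 bases before the start. Gzma holds a single match, a Runx core 50 bases before the start. Gzmb holds 6 matches, among them Runx cores 93 and 34 bases, an AP-1 site 58 bases and a T-box core 15 bases before the start. Fasl holds a single match, an ETS core 24 bases before the start.

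RefSeq gave 11 windows for 9 of the 10 genes, Ctsw being the gene with no window in the table used here and Gzmm and Srgn having 2 each. The Runx core was found in 7 of the 11 windows (Prf1, Gzma, Gzmb, Gzmm, Nkg7, Serpinb9 and Srgn), and in 16.8% of all 32851 promoter windows of the same length. The ETS core was found in 6 windows and in 30.6% of all windows. The T-box core was found in 3 (Gzmb, Gzmm and Nkg7) and in 14.5% of all, the interferon gamma activated site in the same 3 genes and in 8.3% of all. The cyclic AMP response core was found in 3 (Prf1, Gzmb and Srgn) and in 7.51% of all, and the AP-1 site in 1 (Gzmb) and in 7.81% of all. Srgn, whose transcript showed another pattern than the effector genes, also holds a Runx core. The matches are a description of these letters and not of binding.

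Serpinb9 encodes the mouse counterpart of the granzyme B inhibitor PI-9. Its brighter probe set, on U74A, read 528 and 531 in IKDC, against 35.6 and 65.5 in PDC and 91.6 and 180 in cDC. The order was IKDC, cDC, PDC, with no overlap between any pair. Serpinb9 was higher in IKDC than in PDC by 3.07 ± 0.37 (adjusted p = 0.000524, limma) and than in cDC by 1.91 ± 0.37 (adjusted p = 0.0103). The call against cDC was lost without IKDC replicate 1 (0.0910), IKDC replicate 2 (0.0923) or cDC replicate 1 (0.108). The U74B probe set ran in the same order, 180 and 114 in IKDC, against 59.8 and 5.40 in PDC and 72.8 and 61.7 in cDC, and passed in no comparison (adjusted p = 0.146 from PDC and 0.476 from cDC).

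Serpinb6b, another intracellular serpin of the same clade, read 642 and 512 in IKDC, against 117 and 112.5 in PDC and 354 and 380 in cDC. The 3 populations were separated without overlap. PDC was the low population on both calls. Serpinb6b was 2.17 ± 0.27 higher in IKDC than in PDC (adjusted p = 0.00141, limma), and 1.55 ± 0.27 lower in PDC than in cDC (log2 difference -1.55, adjusted p = 0.0128). IKDC minus cDC was 0.62 ± 0.27, with a 95% interval of 0.01 to 1.24 and an adjusted p of 0.256. The call between PDC and cDC was lost without cDC replicate 1 (0.0811), without cDC replicate 2 (0.105) and without the intensity trend (0.0576).

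In the RefSeq gene order Serpinb6b, Serpinb9 and Serpinb9b are consecutive on chromosome 13. Serpinb9b, the neighbour that is not among the 10 genes, read 456 and 489 in IKDC, against 11.3 and 34.2 in PDC and 19.0 and 8.10 in cDC on U74C. This probe set was tested only because both IKDC samples reached the signal required for testing. Serpinb9b was at least 7.87-fold higher in IKDC than in PDC or cDC, with limma adjusted p = 0.00363 against cDC and 0.00691 against PDC. Unspiked controls reached 149 on U74C, so this bound is not firm. So Serpinb9 and Serpinb9b were called higher in IKDC against both populations, and Serpinb6b against PDC. Beyond Serpinb9b, Adamts14, which lies beside Prf1, read 1253 and 1632 in IKDC, against 390 and 111 in PDC and 125 and 179 in cDC, and was called higher in both comparisons (adjusted p = 0.0107 against PDC and 0.00394 against cDC, limma). No other tested gene within 2 places of one of the 10 genes, apart from the serpins above, passed in any of the 3 comparisons.

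Srgn encodes serglycin and had another order, with cDC highest. It read 812 and 440 in IKDC, against 472 and 439.5 in PDC and 1115 and 1086 in cDC. Both cDC samples were above the other 4, and IKDC replicate 2 fell among the PDC samples. None of the 3 comparisons passed: the log2 difference was -0.86 ± 0.31 for IKDC minus cDC (adjusted p = 0.157, limma), 0.38 ± 0.31 for IKDC minus PDC (adjusted p = 0.664) and -1.24 ± 0.31 for PDC minus cDC (adjusted p = 0.0546). The last was called in 7 of 17 alternative settings, with an adjusted p from 0.0162 to 0.226 over all of them. The test of IKDC against PDC gave a 95% interval of -0.31 to 1.07.

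**Figure D2:**
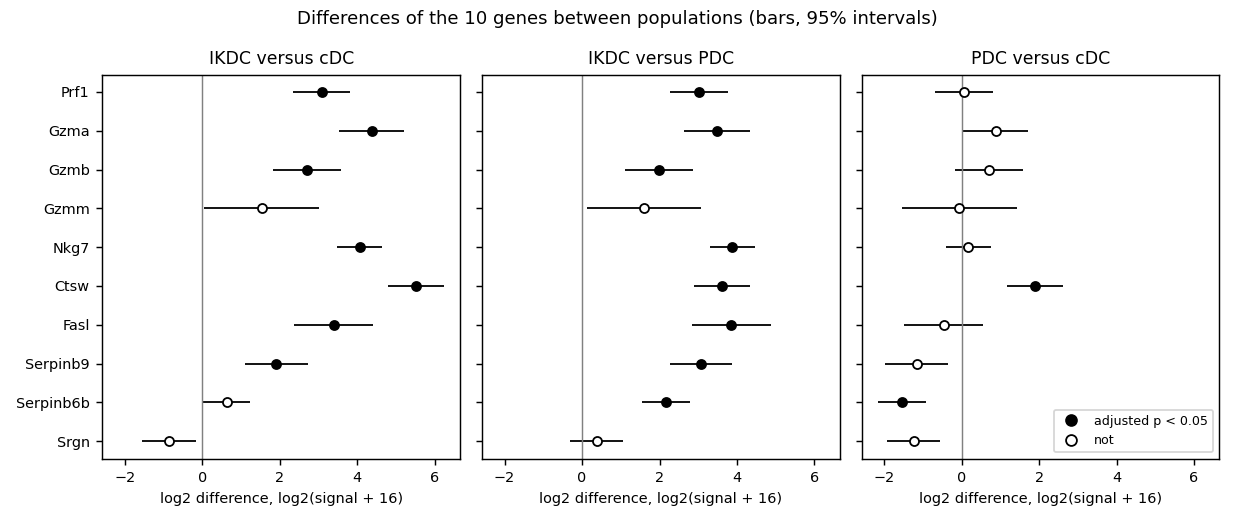
Log2 difference of each of the 10 genes, on the log2(signal + 16) scale, in IKDC versus cDC, IKDC versus PDC and PDC versus cDC, with 95% intervals, filled points being called by limma with an adjusted p under 0.05. Filled points lie right of 0 for 7 genes in IKDC versus cDC and 8 in IKDC versus PDC, while PDC versus cDC has one on each side.

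Without any test, both IKDC samples lay above both cDC samples for 9 of the 10 genes and below them for 1 (Srgn), where 27.4% and 26.9% of all tested genes were so separated. They lay above both PDC samples for 9 and below them for 0, against 23.9% and 22.3% of all tested genes, and overlapped for Srgn. Between PDC and cDC, 6 of the 10 overlapped, 1 was separated with PDC higher (22% of all) and 3 with PDC lower (21.5% of all): Serpinb9, Serpinb6b and Srgn.

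The 2 samples of a population were also set against each other. PDC replicate 1 exceeded PDC replicate 2 for 9 of the 10 genes, with a median ratio of 1.43, while 50.9% of all tested genes were higher in that replicate. Serpinb9 was the exception. PDC replicate 1 also exceeded PDC replicate 2 for 8 of 10 NK markers, and whether this bears on the PDC values of the 10 genes was not tested. In cDC, replicate 1 was the higher sample for 2 of the 10 genes (50% of all genes), and in IKDC for 6 (48.2%).

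Across the 6 samples, the Pearson r on the log2 scale was 0.99 for Prf1 with Nkg7, 0.99 for Gzma with Gzmb and 0.98 for Gzma with Ctsw. Srgn had r between -0.46 and 0.51 with the other 9. The genes most like each of the 10, among all tested genes, are given as a description, over 6 samples that form 3 pairs of the same population. They were Rab27b, Gimap7 and Klra7 for Prf1 (r = 0.999 to 0.997), Dgka, Txk and Drap1 for Gzma, Il18rap, Sidt1 and S100a10 for Gzmb, and Polg, Mid1ip1 and Cdc73 for Gzmm. They were Samd3, Klrk1 and Gimap4 for Nkg7 (r = 0.998 to 0.997), Ugcg, Gbp3 and Klrd1 for Ctsw, and Shisa5, Lratd2 and Gfi1 for Fasl. Cdk2ap1, Snx14 and Mapk6 were most like Serpinb9, Mfsd6, Tes and Tm6sf1 most like Serpinb6b, and Cblif, Smoc2 and Pygl most like Srgn. The genes most like Srgn were dim. Cblif did not exceed 79.8, and Smoc2 did not exceed 110.3 on U74C, where unspiked controls reached 149. Pygl was under 60 in all IKDC and PDC samples.

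T cells and mast cells can also express these genes. Of 12 T cell markers, 7 were tested, and their summed signal was 1552 and 1112 in IKDC, against 3308 and 3927 in PDC and 849 and 599 in cDC. The PDC sum came mostly from Cd8b1, at 2244.5 and 2686 in PDC, and Cd4, at 399 and 770 in PDC. In IKDC 3 of the 7 (Cd3g, Cd28 and Cd8b1) were called higher and 0 lower than in cDC, and 1 (Cd3g) was called higher and 2 (Cd4 and Cd8b1) lower than in PDC. Of all tested genes, 3.5% were called higher and 4.07% lower in IKDC than in cDC, and 2.71% and 3.17% than in PDC. Cd3g, a T cell receptor chain, read 466.5 and 173 in IKDC, against 66.2 and 5.20 in PDC and 22.5 and 5.80 in cDC, and was called higher in IKDC in both comparisons (adjusted p = 0.0312 against PDC and 0.0108 against cDC, limma). Cd28, a T cell co-stimulatory receptor, read 360 and 307 in IKDC, against 183 and 223 in PDC and 56.8 and 46.7 in cDC, at least 5.54-fold higher in IKDC than in cDC (adjusted p = 0.000729). Cd3d read 102 and 124 in IKDC, against 145 and 102 in PDC and 146 and 41.3 in cDC. The highest Cd3e value was 135, in PDC replicate 1. Of 12 mast cell and basophil markers 5 were tested, with sums of 1423 and 1155 in IKDC, against 823 and 728.5 in PDC and 833 and 840.1 in cDC. Of these, 1 was called higher in each comparison of IKDC and 0 lower, beside the shares of all tested genes given above. Against cDC it was Cma1, a mast cell chymase (515 and 359 in IKDC, 65.8 and 89.8 in cDC, adjusted p = 0.0012, limma). Against PDC it was Kit, the stem cell factor receptor (419 and 481 in IKDC, 59.9 and 66.4 in PDC, adjusted p = 0.000403), which read 322 and 447 in cDC. Ms4a2, a chain of the IgE receptor, read 298 and 69.5 in IKDC, against 233 and 253 in PDC and 103.5 and 81.2 in cDC, and Tpsb2, a tryptase, lay between 62.9 and 184 in the 6 samples. The untested markers with a probe set, Cpa3, Mcpt1, Mcpt2, Mcpt4, Mcpt8 and Tpsab1, had highest values between 5.60 and 82.4. The part of such cells in the values of the 10 genes was not tested.

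Cst7 was called higher in IKDC than in both other populations. It belongs to a list of granule proteases, their activators and inhibitors. Of its 6 tested genes, 1 was called higher and 2 lower in IKDC in each comparison of IKDC. Among all tested genes, 3.5% were called higher and 4.07% lower in IKDC than in cDC, and 2.71% and 3.17% than in PDC. The same shares stand beside the counts of the lists below. Cst7, which is cystatin F, an inhibitor of the granzyme-activating protease cathepsin C, read 1079.5 and 1062 in IKDC, against 50.4 and 51.0 in PDC and 70.7 and 73.6 in cDC. It was 3.62 ± 0.29 higher in IKDC than in cDC (adjusted p = 3.48e-05, limma) and at least 17.8-fold higher than in PDC (adjusted p = 1.76e-05). Ctsc, cathepsin C itself, was not called, with 330 and 390 in IKDC, 342 and 478 in PDC and 313 and 419 in cDC. Ctsh, a lysosomal aminopeptidase, was lower in IKDC than in both (log2 difference -3.49 from cDC and -4.39 from PDC). Ctsl, a lysosomal endopeptidase, was called lower in IKDC than in PDC by limma (log2 difference -4.78), and Dpp4, a surface dipeptidase, lower than in cDC. Both IKDC values of Dpp4 (44.6 and 59.8) were under 60, against 169 and 167 in cDC, so it was at least 2.81-fold lower in IKDC (adjusted p = 0.0497, limma).

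Of 6 other tested B clade serpins, 1 (Serpinb9b) was called higher in IKDC in both comparisons, and 1 (Serpinb8) lower than in cDC. Serpinb8 read 24.6 and 14.0 in IKDC against 194 and 352 in cDC (at least 4.35-fold lower, adjusted p = 0.0412, limma). Its probe set is on U74C and has the suffix f, as for Gzmm. Unspiked controls reached 149 on that array type, so this bound is not firm. Of 4 tested other ligands of the tumour necrosis factor family, 0 were called higher and 1 lower in IKDC than in cDC. This was Tnf, a cytokine and death ligand, at 167 and 156.5 in IKDC against 695 and 467 in cDC (log2 difference -1.72 ± 0.38, adjusted p = 0.0222). Against PDC, 1 of the 4 was called higher, Ltb, a lymphotoxin subunit (1.76 ± 0.27, adjusted p = 0.00264). Tnfsf10, the death ligand TRAIL, was not called and read 117 and 140.2 in IKDC, 62.8 and 45.7 in PDC and 76.9 and 34.8 in cDC.

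Of 8 tested genes of death receptor signalling, 1 was called higher in IKDC than in cDC and 0 in either direction against PDC. It was Tradd, an adaptor of tumour necrosis factor receptors (1.55 ± 0.31, adjusted p = 0.0114, limma). Fadd, the adaptor that Fas uses, was not called, at 129 and 118 in IKDC, 139 and 98.8 in PDC and 148.5 and 139 in cDC.

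Granule release genes were called in both directions. Of 12 tested, 0 were called higher and 3 lower in IKDC than in cDC, the lower ones being Lyst, a regulator of lysosome size, and the SNARE proteins Stx7 and Vamp8 (log2 difference -1.49, -1.24 and -1.14), where 3.5% of all tested genes were called higher and 4.07% lower. Against PDC, 2 were called higher and 1 lower, beside 2.71% and 3.17% of all tested genes. Stx11, a SNARE needed for granule release in lymphocytes, was 3.02 ± 0.49 higher (adjusted p = 0.00474, limma), and Sytl2, a Rab27 effector, at least 4.86-fold higher (adjusted p = 0.00856). Stx7 was the lower one. Unc13d and Rab27a, which dock and prime granules, and Lamp1, a granule membrane protein, were not called in any comparison. Rab27a read 570 and 856 in IKDC, 484 and 633 in PDC and 482.5 and 432 in cDC.

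Of 5 tested transcriptional regulators of granule genes, 2 were called higher in IKDC than in cDC and 3 than in PDC, and 0 lower. Among all tested genes, 3.5% were called higher in IKDC than in cDC and 2.71% than in PDC. Eomes, which is also on the NK marker list, is a T-box factor that drives perforin and granzyme genes in killer lymphocytes. It read 1211 and 1316 in IKDC, against 34.7 and 46.2 in PDC and 40.5 and 20.3 in cDC. Eomes was at least 21.0-fold higher in IKDC than in either (adjusted p = 1.97e-05 against PDC and 2.58e-05 against cDC, limma). Its probe set was tested only because both IKDC samples reached the signal required for testing. Stat4, which signals from the interleukin-12 receptor, read 1155 and 1197 in IKDC, against 145 and 50.5 in PDC and 122 and 83.3 in cDC, and was called higher in both. Id2, an inhibitor of E proteins, was 3.29 ± 0.30 higher than in PDC (adjusted p = 8.94e-05), with 3781 and 3011 in IKDC, 433 and 253 in PDC and 2576 and 2810 in cDC. Runx3 was not called (190 and 207 in IKDC, 76.1 and 88.7 in PDC, 74.4 and 99.2 in cDC), and the highest value of Prdm1 was 57.1. These lists were drawn up with earlier results of these data known and are described by their counts.

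**Figure D3:**
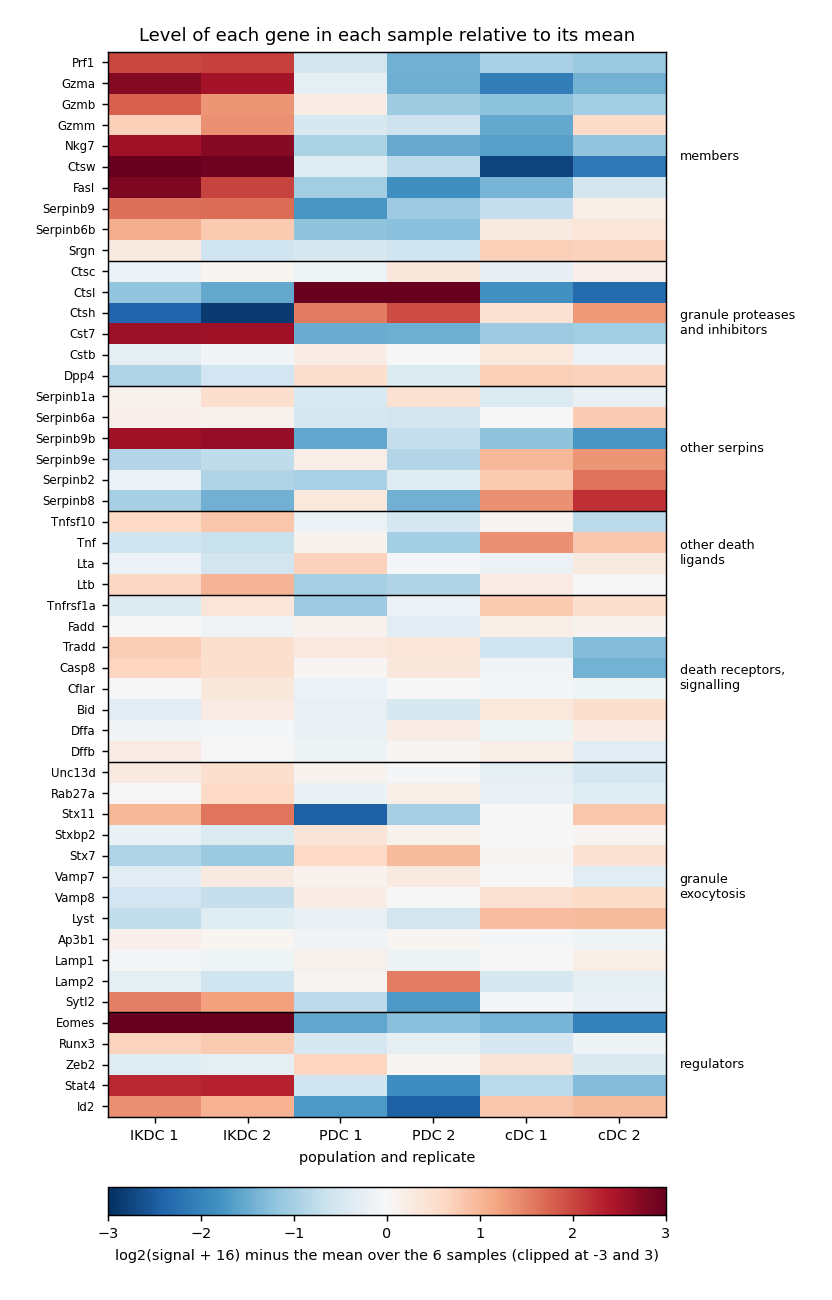
Level of the 10 genes and of each tested gene of the pathway lists (rows) in each sample (columns), as log2(signal + 16) minus the gene's mean over the 6 samples, clipped at -3 and 3, red being above the mean. Cst7, Serpinb9b, Eomes and Stat4 share the strong IKDC columns of the cargo genes.

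The calls of Prf1, Gzma, Gzmb, Nkg7 and Ctsw in IKDC versus cDC were made in all 17 alternative settings tried, which include leaving out each sample in turn. So were those of Prf1, Gzma, Nkg7, Ctsw, Fasl, Serpinb9 and Serpinb6b in IKDC versus PDC. Neither of the calls between PDC and cDC was made in all 17.

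**Figure D4:**
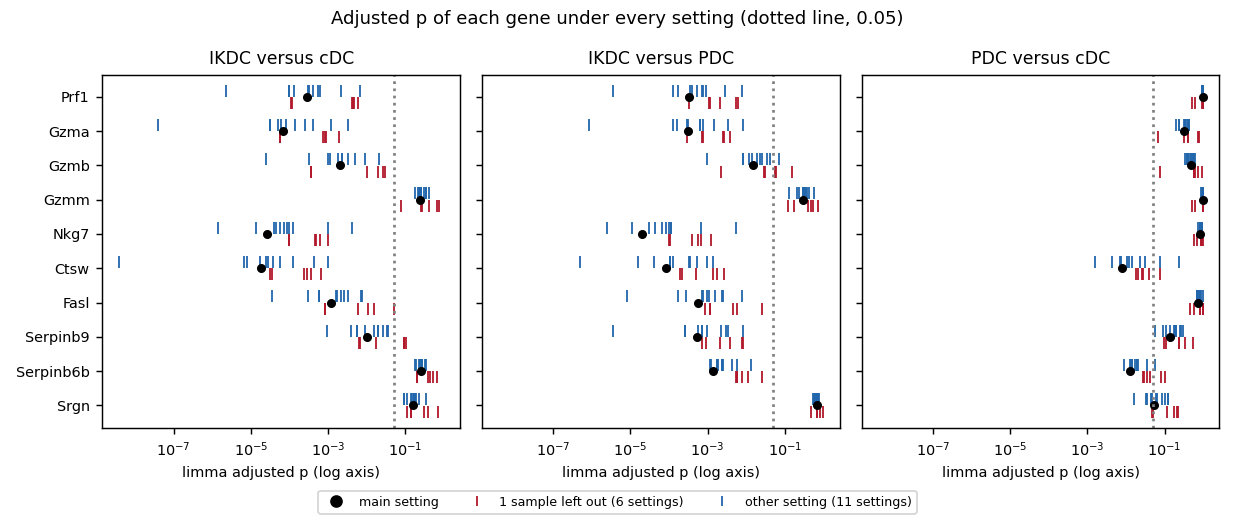
Limma adjusted p (log axis) of each gene in the 3 comparisons under the reported setting (black points), with 1 sample left out (red ticks) and under 11 other settings (blue ticks), and a dotted line at 0.05. Serpinb9 and Fasl in IKDC versus cDC, Gzmb in IKDC versus PDC, and Ctsw, Serpinb6b and Srgn in PDC versus cDC have ticks on both sides of the line.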

How the data were processed

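Total RNA of spleen cell populations was amplified in a pair of rounds, labelled and hybridised, per the labels' protocols. The authors deposited linear signal intensity values, made in GCOS 1.1.1 and globally scaled so that each array had a target intensity of 150, as the labels describe. MAS 5 appears in the submitters' processing notes. Amplification favours 3' ends, and scaling makes every difference relative to an array's mean level. From these values log2(signal + 16) was computed. Probe sets that reached 60 in 2 or more of the 6 samples (23285 of 36701) were tested with limma 3.58.1 in R 4.3.3 (lmFit, eBayes with an intensity trend), all 3 populations in 1 model per array type, with Benjamini-Hochberg adjustment over all array types and a threshold of 0.05. The script was tested on simulated data.

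Symbols came from the platform annotation (29131 probe sets with 1 symbol, 724 with several, 6846 with none listed), updated through a GRCm38.p6 RefSeq table that also gave gene order. Promoter windows are RefSeq's. A gene was represented by its tested probe set with the highest mean signal, and levels of different probe sets were not compared. Where both samples of the dimmer population were under 60, the fold is a bound: the geometric mean of the brighter population's signals, those under 60 taken as 60, over 60. Unspiked controls exceeded 60 on U74B and U74C, so bounds on those array types are not firm. Likeness was the Pearson r of log2(signal + 16) over the 6 samples, with the leading 3 genes named. Pathway genes were named by list, up to 3 per comparison by smallest adjusted p among those called, or else up to 2 by mean signal. Others named are direct neighbours, members of the marker lists, or were chosen after their values were seen. The 10 genes, the lists, the motifs and the tests were chosen with earlier results of these data known. In all, 17 alternative settings were tried.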

Additional observations from a re-analysis of the deposited data

How the results depend on the processing

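Over 42 comparisons of single probe sets, 21 were called, and 16 of these in every alternative that could be run. Of 708 values under alternatives, 673 kept their direction and side of the threshold, 14 lost a call, 9 gained one and 12 changed sign. The sign changes were all in values that passed no test. Srgn in IKDC versus PDC ranged from -0.0492 (without IKDC replicate 1) to 0.812 with 1 sample left out. In PDC versus cDC, Gzmm on U74C turned to 0.0068 with a pseudocount of 1, 0.0442 with quantile normalization and 0.0877 with median centring. Leaving out 1 sample at a time gave -1.11 to 0.98 for this probe set, -0.66 to 0.39 for Gzmm on U74A, -0.39 to 0.49 for Prf1 and -0.11 to 0.45 for the brightest Nkg7 probe set. The number of the 10 genes called between PDC and cDC, 2, was 1 with signals under 60 set to 60 and 1 with no intensity trend. Over samples left out it ranged from 0 (without cDC replicate 1) to 3 (without IKDC replicate 1 or 2). The number of all probe sets called was 1305 in IKDC versus cDC (593 to 1656 with 1 sample left out, lowest without IKDC replicate 1), 1036 in IKDC versus PDC (493 to 869, lowest without IKDC replicate 2) and 849 in PDC versus cDC (327 to 719, lowest without cDC replicate 2). A lone sample left in a population is assumed to vary like the others. Median centring moved the median difference of all probe sets in IKDC versus cDC to 0.11, against -0.01 as reported. The titles link same-numbered samples by a number, and whether these share a batch was not tested. Their correlation of deviations was -0.0862 to 0.235, the highest being that of PDC and cDC on U74A. With the replicate block 1650, 1223 and 1055 probe sets were called, with 7, 8 and 3 of the 10 genes. The cause of these changes was not tested. Signals near 60 are close to background: unspiked controls reached 45.2 on U74A, 123 on U74B and 149 on U74C, which limits the dim values of Gzmm and of Serpinb9 on U74B. Adjusting within an array type and the other settings named above moved no call of Prf1, Gzma, Nkg7 or Ctsw in the comparisons of IKDC.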
